A study of Mus musculus with 8 samples.

Results

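Rab GTPase genes were followed in the mouse neuroblastoma line N2a after knockdown of Emg1, the gene of an enzyme that methylates 18S ribosomal RNA. The members were all genes of the authors' input RNA table whose symbol is Rab followed by a number, with at most 1 letter and 1 further digit after it, 53 of 16279 genes, and the differential m6A peaks that carry such a name, 8 of 2114 peaks. The rule used names and no fold change or p, but the genes were taken up with earlier results of these data known, so the counts below describe the family and do not test it. The genes Rab17, Rab27b, Rab29, Rab38, Rab6b and Rab7b, whose RefSeq symbols fit the rule, were not analysed here.

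Each group received 1 agent by transfection and was collected 48 h later: a small interfering RNA against Emg1, or the control one of the study. From each, m6A-immunoprecipitated poly(A) RNA and input poly(A) RNA were sequenced, with 2 libraries in each of the 4 groups: Emg1 knockdown m6A IP, control m6A IP, Emg1 knockdown input and control input. All cells were N2a. The labels do not tell whether the libraries stem from separate cultures, so the p-values may measure technical spread. The tables hold no value per library, so each change is given with its mean over libraries, its standard error (SE) and its adjusted p, and the depth of a library is unknown.

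Rab proteins are small GTPases that mark membranes. Loaded with GTP by exchange factors, a Rab recruits effectors such as tethers and motor adaptors, and GTPase-activating proteins switch it off. Newly made Rab proteins are prenylated with the help of an escort protein, and a GDP dissociation inhibitor (GDI) carries inactive Rabs between membranes. In neurons and neuroendocrine cells, Rab3 and Rab27 proteins serve regulated secretion.

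Emg1 itself fell by 1.73 ± 0.11 (log2, SE), to 30.2% of control (DESeq2 adjusted p = 3.37e-54 in the authors' deposited table). Its sign is why changes are read as knockdown over control, since the file names no direction. Of 10 measured neuroblastoma and sympathoadrenal markers, 9 had a mean normalized count of at least 100. At a DESeq2 adjusted p under 0.05, 6 rose and 2 fell with the knockdown, against 17.1% higher and 15.5% lower of all tested genes. Of all genes with a mean of 1000 or more, 26.1% rose and 19.3% fell. The part of these markers in the Rab results was not tested. Dbh, a noradrenaline synthesis gene, was low at 42.6. Markers of leukocytes and macrophages had means of at most 15.4 and those of epithelium of at most 45.7, while Pdgfra of the fibroblast list had 1357 and Mbp of the glial list 688. None of the 11 measured markers of other cell types passed the test. Most of these had means below 100, and Csf1r, Cdh1 and Gfap had 3.96, 7.81 and 9.87. At such means a change is hard to detect, so this does not show that they were unchanged.

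Every Rab gene that passed the test fell, by a modest amount, except Rab3a, which rose. Of the 47 Rab genes with an adjusted p, 19 fell and 1 rose at a DESeq2 adjusted p under 0.05 in the authors' deposited table, against a background of 15.5% of all tested genes lower and 17.1% higher. The falling share was thus 40.4% and the rising share 2.13%. The median log2 fold change was -0.23 over these 47 genes and -0.0023 over all 12807 genes tested. The 19 falling genes were left with 52.3% to 89.0% of the control level (median 75.9%), and 10 of them kept more than 75%. The 27 others lay on both sides, 15 below 0 and 12 above. In bulk RNA, a lower level in every cell and fewer cells with the transcript cannot be told apart.

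The members had more reads than the average gene, with a median mean normalized count of 1182 against 598, and more reads make small changes easier to call. At a mean normalized count of 1000 or more, 15 of 29 Rab genes fell, against 19.3% of all genes, and 1 rose, against 26.1%. At a minimum of 100, the counts were 18 lower and 1 higher of 42, against 17.1% lower and 19.4% higher. The remaining 6 members, Rab9b, Rab19, Rab25, Rab37, Rab15 and Rab42, had means of 5.89 to 15.6 and no adjusted p. Their SE were between 0.80 and 1.60, so changes of these 6 were not detectable at this depth.

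**Figure D1:**
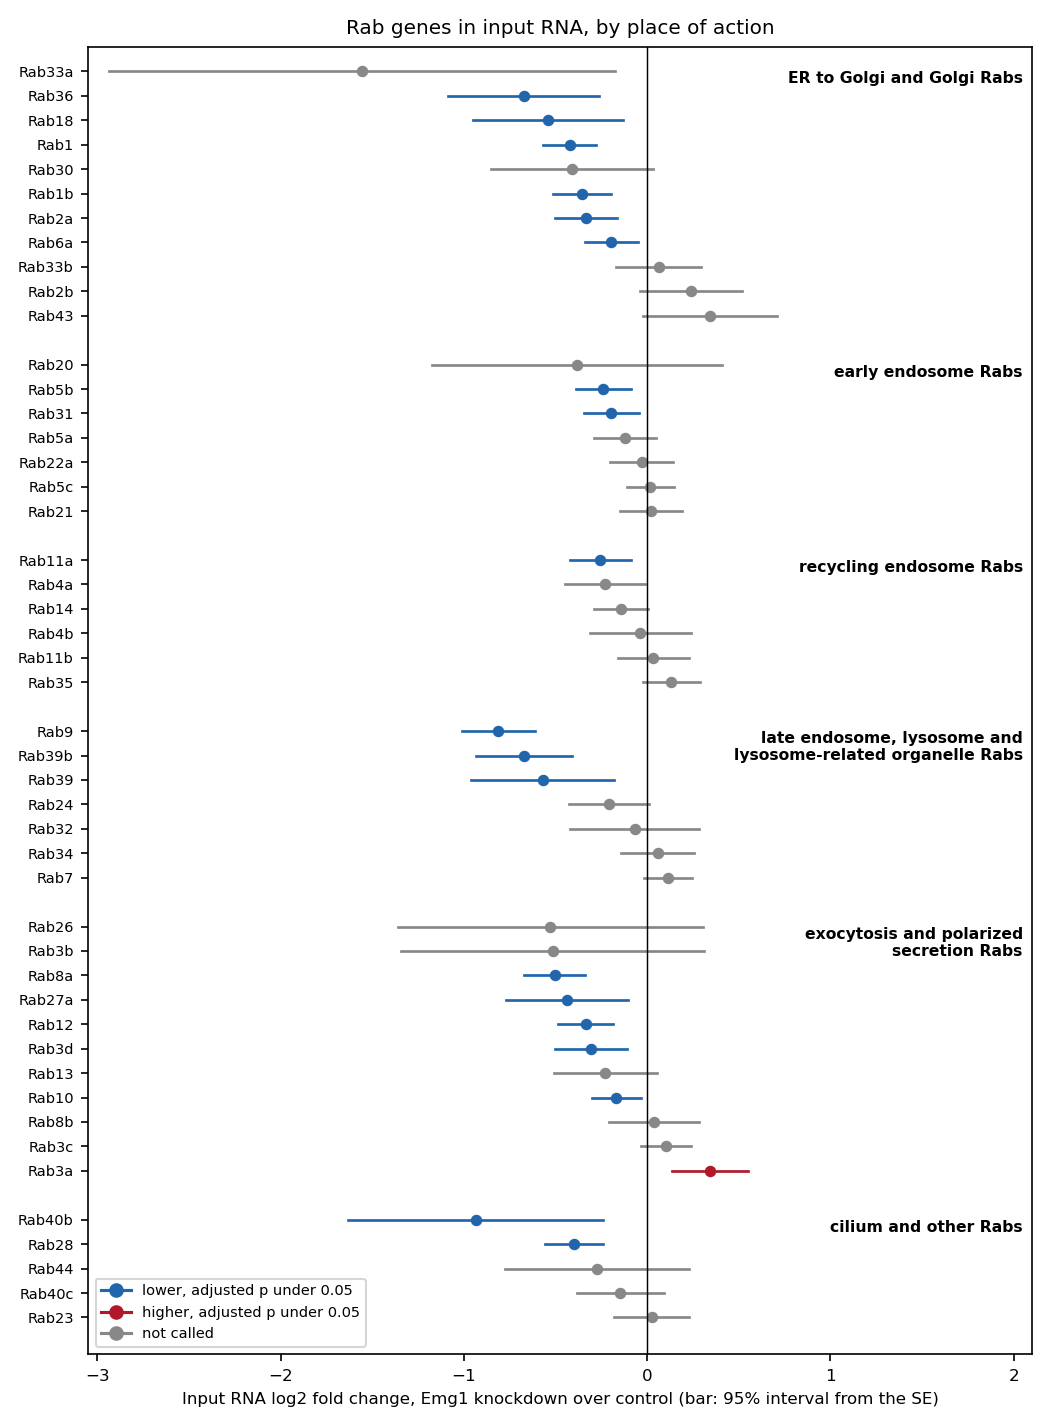
Input RNA log2 fold change, Emg1 knockdown over control, of the 47 Rab genes with an adjusted p, grouped by the membranes where their proteins act; points are the authors' values and bars 95% intervals from the SE. Blue genes (19) fell, the red gene (Rab3a) rose and grey genes (27) did not pass.

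Promoter sequence is shown for the 5 falling genes with the smallest adjusted p and for Rab3a, the only member that passed the test as higher. Each run is 250 bases before the outermost start of the RefSeq promoter table, 5′ to 3′, on GRCm38.p6. The last 14 bases of the Rab28 window, with its GC box, lie inside the RefSeq gene span, and the other windows end at the span. Rab9 lies at chrX:166479868-166480117, minus strand, and Rab8a at chr8:72160950-72161199, plus strand. Rab1 (RefSeq symbol Rab1a) lies at chr11:20201162-20201411, plus strand, and Rab39b at chrX:75578232-75578481, minus strand. Rab28 lies at chr5:41708180-41708429, minus strand, and Rab3a at chr8:70754453-70754702, plus strand. Capitals mark matches, on either strand, to CCAAT (the CCAAT box) or GGGCGG (the GC box).
Rab9: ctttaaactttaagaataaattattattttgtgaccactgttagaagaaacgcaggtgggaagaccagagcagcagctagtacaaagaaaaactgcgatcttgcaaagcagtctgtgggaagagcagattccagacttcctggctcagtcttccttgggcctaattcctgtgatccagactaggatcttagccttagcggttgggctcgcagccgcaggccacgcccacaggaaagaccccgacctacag
Rab8a: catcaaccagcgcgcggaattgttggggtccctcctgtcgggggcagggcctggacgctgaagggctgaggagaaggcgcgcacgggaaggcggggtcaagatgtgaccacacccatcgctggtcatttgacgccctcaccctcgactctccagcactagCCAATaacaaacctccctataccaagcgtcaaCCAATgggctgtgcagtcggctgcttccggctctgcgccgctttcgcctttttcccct
Rab1: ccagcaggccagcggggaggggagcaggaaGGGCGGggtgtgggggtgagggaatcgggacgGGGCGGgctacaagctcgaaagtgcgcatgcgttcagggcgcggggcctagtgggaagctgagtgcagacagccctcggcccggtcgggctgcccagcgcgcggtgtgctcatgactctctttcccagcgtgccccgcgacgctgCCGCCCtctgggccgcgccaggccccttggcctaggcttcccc
Rab39b: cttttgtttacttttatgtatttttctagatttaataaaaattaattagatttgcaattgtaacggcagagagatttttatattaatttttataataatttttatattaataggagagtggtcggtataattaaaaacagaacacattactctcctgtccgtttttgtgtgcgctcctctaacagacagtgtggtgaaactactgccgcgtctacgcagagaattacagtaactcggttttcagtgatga
Rab28: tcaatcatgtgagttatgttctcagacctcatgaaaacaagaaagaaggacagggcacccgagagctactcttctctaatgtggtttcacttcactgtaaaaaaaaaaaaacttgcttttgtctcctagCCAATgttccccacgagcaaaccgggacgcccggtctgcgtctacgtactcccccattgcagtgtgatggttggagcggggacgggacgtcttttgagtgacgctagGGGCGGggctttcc
Rab3a: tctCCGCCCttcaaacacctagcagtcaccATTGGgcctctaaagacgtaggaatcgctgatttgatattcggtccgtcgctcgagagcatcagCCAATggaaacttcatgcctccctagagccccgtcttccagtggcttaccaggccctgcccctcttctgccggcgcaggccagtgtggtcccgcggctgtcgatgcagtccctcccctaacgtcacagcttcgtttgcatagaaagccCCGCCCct
The falling genes did not share a promoter layout in these windows. Rab8a held 2 CCAAT boxes and no GC box, Rab1 held 3 GC boxes and no CCAAT box, and Rab9 and Rab39b held neither. The riser Rab3a held 2 of each. G and C made up 31.6% of the Rab39b window and 72.4% of that of Rab1.

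A promoter was matched for 45 of the 53 Rab genes. A CCAAT box was in 62.5% of 16 falling Rab promoters and 41.4% of the 29 others, against 34.5% of 27025 promoters of all genes. These 27025 promoters include genes outside the 16279 of the input table, and promoters of genes with like mean counts were not compared. A GC box was in 75.0% and 69.0%, against 33.0%. The median G and C content was 61.2% in falling and 60.4% in other Rab promoters, against 52.0% overall. The E-box CACGTG was in 0 of the 16 and 4 of the 29, against 6.04% of all promoters, and the ATF4 element TGATGNAA in 0 and 1, against 3.53%. None of these 4 motifs overlaps another in the printed windows, and these matches are descriptions of letters in a window.

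In the secretory pathway from the endoplasmic reticulum (ER) to and through the Golgi, 6 of 11 members with an adjusted p fell and 0 rose, with a median of -0.35. The falling share was 54.5%, against 15.5% of all tested genes and 40.4% of the 47 Rab genes. The groups by place of action are small, and whether they differ from each other was not tested. Rab1, which directs ER-to-Golgi carriers, fell to 74.6% of control (-0.42 ± 0.07 log2, SE; DESeq2 adjusted p = 1.47e-07 in the authors' deposited table). Its close relative Rab1b fell to 78.2% (-0.35 ± 0.08; DESeq2 adjusted p = 0.000108 in the authors' deposited table). Both genes of the pair that starts the secretory route were thus lower by similar amounts. Rab2a, which acts at the ER-Golgi intermediate compartment, fell to 79.3% (-0.33 ± 0.09, DESeq2 adjusted p = 0.000671 in the authors' deposited table). Rab6a, a Golgi Rab of retrograde transport, fell to 87.3% (-0.20 ± 0.07, DESeq2 adjusted p = 0.0274 in the authors' deposited table). The 5′ end of Rab6a overlaps that of Mrpl48 on the other strand, which was at -0.28 ± 0.12 in the authors' deposited table. Rab36, another Golgi Rab, fell to 62.7% at a mean of 247 (DESeq2 adjusted p = 0.00658 in the authors' deposited table).

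Rab18, which acts on the ER and on lipid droplets, had the largest SE of all 53 members relative to genes of like mean count. It was at -0.54 ± 0.21 with a mean of 3005 (DESeq2 adjusted p = 0.0313 in the authors' deposited table). That SE was 2.68 times the median of 2489 genes whose means lay within a factor of 1.5, above 99.4% of them, and what set it apart cannot be seen here. Of the members of this group that did not pass, Rab33a had the lowest value of all 47, -1.56 ± 0.70 at a mean of 22.9 (DESeq2 adjusted p = 0.0756 in the authors' deposited table). Rab30 was at -0.41 ± 0.23, and Rab33b, Rab2b and Rab43 were at 0.06, 0.24 and 0.34 in the authors' deposited table.

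Among Rabs of late endosomes, lysosomes and lysosome-related organelles, 3 of 7 fell and 0 rose. The falling share was 42.9%, against 15.5% of all tested genes. Rab9, which returns mannose 6-phosphate receptors from late endosomes to the Golgi, had the smallest adjusted p of all members, 1.27e-13 by DESeq2 in the authors' deposited table, and fell to 57.0% of control (-0.81 ± 0.10). Rab39b, a Rab of neurons whose loss causes intellectual disability in humans, fell to 62.7% (-0.67 ± 0.13, DESeq2 adjusted p = 5.55e-06 in the authors' deposited table). Its relative Rab39 fell to 67.3% (-0.57 ± 0.20, DESeq2 adjusted p = 0.0161 in the authors' deposited table). Rab7, the Rab of fusion with lysosomes, did not pass at 0.11 ± 0.07, with a 95% interval that excludes a fall as large as that of Rab9 in the authors' deposited table. Rab24, Rab32 and Rab34 were at -0.21, -0.07 and 0.06 and did not pass.

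Rab9 and Rab39b are both on the X chromosome, as are Rab33a, which did not pass, and Rab9b, which had no adjusted p. Of 422 X-linked genes with an adjusted p, 19.7% fell, with a median of -0.09, against 15.5% and -0.0023 over all tested genes. The 19 falling members were spread over 12 chromosomes.

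Rabs of exocytosis and polarized secretion held both directions, with 5 lower and 1 higher of 11. These shares were 45.5% and 9.09%, against 15.5% lower and 17.1% higher over all tested genes. Rab8a, which directs carriers to the plasma membrane and the cilium, fell to 70.5% of control (-0.51 ± 0.08, DESeq2 adjusted p = 3.33e-08 in the authors' deposited table). Rab12, a Rab of transferrin receptor degradation that the list placed in this group, fell to 79.3% (-0.34 ± 0.08, DESeq2 adjusted p = 0.000114 in the authors' deposited table). Rab27a, which tethers secretory granules and lysosome-related organelles, fell to 73.8% (-0.44 ± 0.17, DESeq2 adjusted p = 0.0323 in the authors' deposited table). Rab10, a Rab of exocytosis close to Rab8, fell to 89.0% (-0.17 ± 0.07), the member nearest the threshold at a DESeq2 adjusted p of 0.0428 in the authors' deposited table. Its antisense neighbour Rab10os, whose reads may not be separable, was at -0.03 ± 0.22.

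The Rab3 genes, whose proteins sit on synaptic and secretory vesicles, split. Rab3a rose to 127% of control (0.34 ± 0.11, DESeq2 adjusted p = 0.00547 in the authors' deposited table) and was the only riser among the 47. Rab3d fell to 80.9% (-0.31 ± 0.10, DESeq2 adjusted p = 0.00875 in the authors' deposited table). Rab3c was at 0.10 ± 0.07 and Rab3b, at a mean of 61.2, at -0.52 ± 0.42 in the authors' deposited table, and neither passed. Rab26, Rab13 and Rab8b were at -0.53, -0.23 and 0.04 and did not pass.

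Of 7 early endosome members 2 fell, 28.6% against 15.5% of all tested genes: Rab5b to 84.8% (-0.24 ± 0.08, DESeq2 adjusted p = 0.00771 in the authors' deposited table) and Rab31, a Rab of Golgi-to-endosome transport, to 87.3% (-0.20 ± 0.08, DESeq2 adjusted p = 0.035 in the authors' deposited table). Rab5a, Rab22a, Rab5c and Rab21 were at -0.12, -0.03, 0.02 and 0.02, and Rab20 at -0.38 with a mean of 69.5. Of 6 recycling endosome members, Rab11a, which returns cargo through the pericentriolar compartment, fell to 83.7% (-0.26 ± 0.09, DESeq2 adjusted p = 0.0107 in the authors' deposited table). Rab4a, Rab14, Rab4b, Rab11b and Rab35 lay between -0.23 and 0.13 and did not pass. The falling share of recycling endosome members, 16.7%, was near the 15.5% of all tested genes.

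In the remaining group of 5, 2 fell, 40.0% against 15.5% of all tested genes. Rab28, a Rab of cilia and photoreceptors, fell to 75.9% (-0.40 ± 0.08, DESeq2 adjusted p = 1.04e-05 in the authors' deposited table). Rab40b, whose protein carries a SOCS box and joins ubiquitin ligases, kept the smallest share of its control level among falling members, 52.3%, at a mean of 97.6 (-0.94 ± 0.36, DESeq2 adjusted p = 0.0293 in the authors' deposited table). Rab44, Rab40c and the Hedgehog regulator Rab23 were at -0.27, -0.15 and 0.02 and did not pass.

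Members of one close family did not always share a change. Over 17 pairs of relatives, the 95% intervals of the input changes lay apart in 5 and overlapped in 12. These pairs were formed from 27 genes, so some share a gene, and not every pair within a family was compared. How often intervals of unrelated genes lie apart was not analysed. Rab8a had an interval of -0.67 to -0.34, against -0.21 to 0.28 for Rab8b. Rab2a had -0.50 to -0.17, against -0.04 to 0.52 for Rab2b. The interval of Rab3d, -0.50 to -0.11, lay below those of Rab3a, 0.14 to 0.55, and Rab3c, -0.03 to 0.24. The remaining pair set apart was Rab33a, at a low mean, and Rab33b. By contrast the pairs Rab1 and Rab1b, and Rab39 and Rab39b, overlapped over most of their length. For Rab11a and Rab11b, and for Rab5b and Rab5c, the intervals overlapped although only the first of each passed. An overlap does not show that 2 changes are alike, and no interval of a difference was computed. The overlap of Rab9 and Rab9b rests on the wide interval of Rab9b, -2.88 to 3.40. With the read counter unknown from these sources, how reads common to close relatives were assigned cannot be said. Rab2b also overlaps Tox4, which was at 0.15 ± 0.09 in the authors' deposited table.

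**Figure D2:**
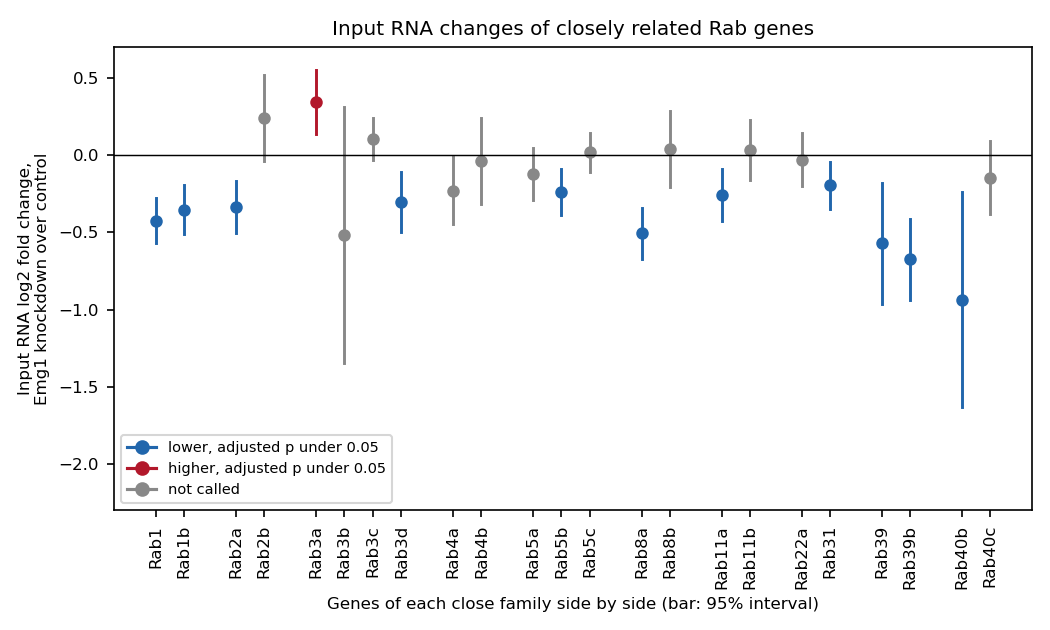
Input RNA log2 fold change, Emg1 knockdown over control, of closely related Rab genes side by side, with 95% intervals from the SE. Rab8a (-0.51) lies below Rab8b (0.04) and Rab2a (-0.33) below Rab2b (0.24), while Rab1 and Rab1b lie together. The pairs Rab9 and Rab9b, and Rab33a and Rab33b, are not drawn.

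The median input change moved only a little with gene span, but the shares of called genes moved more. With a minimum mean of 100, the median log2 fold change was -0.04 in the 20% of genes with the shortest spans and 0.05 in the 20% with the longest. Between these bins the falling share of all genes went from 20.5% to 14.3%, and the rising share from 12.6% to 24.2%. The Rab medians lay below the median of all genes in each of the 5 equal bins of span, at -0.21, -0.05, -0.23, -0.17 and -0.27 with rising span, from 5, 6, 18, 7 and 6 members. The medians of all genes were -0.04, -0.01, 0.01, 0.03 and 0.05. Of the members, 2, 1, 9, 3 and 3 fell, against 20.5%, 17.7%, 17.4%, 16.1% and 14.3% of all genes. In the second bin the falling share of Rab genes, 1 of 6, was thus near that of all genes. Transcript length was not analysed here.

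Of 8 genes that prenylate Rab proteins or carry them between membranes, 5 fell and 0 rose, against the 15.5% lower and 17.1% higher of all tested genes, with a median of -0.27. Rabac1, a membrane protein that binds prenylated Rabs, fell to 67.4% of control (-0.57 ± 0.12, DESeq2 adjusted p = 2.91e-05 in the authors' deposited table). Rabggtb, the beta subunit of the Rab prenyltransferase, fell to 84.5% (-0.24 ± 0.06, DESeq2 adjusted p = 0.000392 in the authors' deposited table). Rabif, a chaperone of nucleotide-free Rabs, fell to 69.3% (-0.53 ± 0.15), and the escort protein gene Chm to 78.6% (-0.35 ± 0.11) in the authors' deposited table. The partner subunit gene Rabggta was at 0.03 ± 0.14 in the authors' deposited table and did not pass.

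Effector genes gave 9 rises and 0 falls among 35 with an adjusted p, with a median of 0.13. The rising share of 25.7% stood against 17.1% of all tested genes, and the falling share of 0 against 15.5%. At a minimum mean of 100, 9 of 32 rose and 0 fell, against 19.4% higher and 17.1% lower of all genes. Of all genes with a mean of 1000 or more 26.1% rose, but the 35 effectors also include genes with lower means. Myrip, which links Rab27a to myosin and actin, rose to 164% of control (0.71 ± 0.08, DESeq2 adjusted p = 5.26e-17 in the authors' deposited table), while Rab27a itself fell. Bicd2, a dynein adaptor that binds Rab6, rose to 127% (0.34 ± 0.07, DESeq2 adjusted p = 3.3e-05 in the authors' deposited table). Rabep1, which encodes the Rab5 effector rabaptin-5, rose to 121% (0.28 ± 0.08), and Rims2, a Rab3-binding protein of the presynaptic active zone, to 124% (0.31 ± 0.09) in the authors' deposited table. Micall1, Bicd1, Mical3, Micall2 and Ehbp1 also rose, by 0.21 to 0.35.

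Of 27 exchange factor genes, 4 rose and 7 fell, with a median of -0.06. These shares were 14.8% and 25.9%, against 17.1% higher and 15.5% lower over all tested genes. Dennd4b rose by 0.66 ± 0.15, Dennd6b by 0.51 ± 0.14 and the Rab3 exchange factor gene Madd by 0.31 ± 0.09, whereas Rin1, an exchange factor for Rab5, fell by 0.55 ± 0.14 in the authors' deposited table. Of 31 genes of GTPase-activating proteins, 2 rose and 5 fell, 6.45% and 16.1%, with a median of -0.05, and the falling share was near the background of 15.5%. Tbc1d16, Tbc1d22a and Tbc1d17 fell, at -0.44 ± 0.08, -0.47 ± 0.10 and -0.31 ± 0.11, and Tbc1d10a rose by 0.43 ± 0.14 in the authors' deposited table. These 4 partner lists were drawn up with earlier results of these data known, and whether they differ from each other was not tested.

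**Figure D3:**
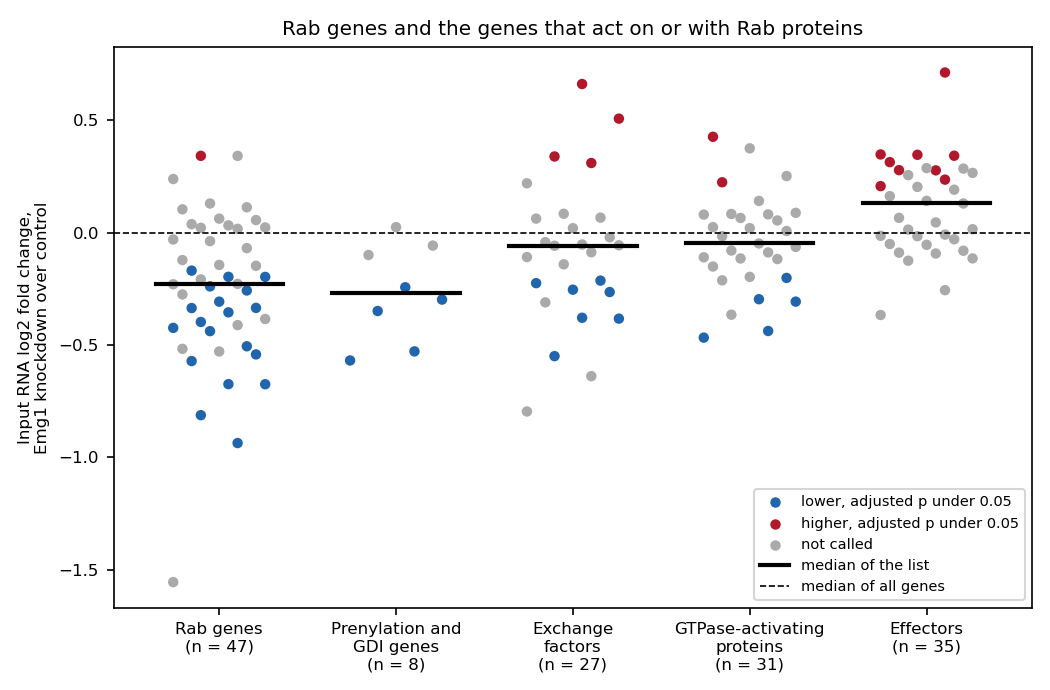
Input RNA log2 fold change, Emg1 knockdown over control, of Rab genes and of 4 lists of genes that act on or with Rab proteins; each point is 1 gene with an adjusted p, thick lines are list medians and the dashed line is the median of all genes (-0.0023). The medians run from -0.27 for prenylation and GDI genes to 0.13 for effectors.

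Differential m6A peaks were listed on 8 Rab genes, 1 peak each, which is 15.1% of the 53 members, against 11.7% of all genes of the input table. At a mean of 100 or more the shares were 19.0% of 42 and 16.9%, so the Rab share was near the background. The change was positive for 4 peaks and negative for 4, against 46.9% positive and 53.1% negative in the whole list. Which condition stands on top of the peak change is not stated, so a sign cannot be read as gain or loss. The peaks are listed because they passed the authors' test, so their changes and false discovery rates (FDR) are a description.

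The 4 positive changes were on Rab5b, Rab3d, Rab40c and Rab23. On Rab5b the peak at mm10 chr10:128677752-128677932 had the largest change, 1.59 on the log2 scale, with an FDR of 4.9e-08 and a fold enrichment of IP over input of 1.77 in the authors' deposited table. On Rab3d the peak at chr9:21910328-21910478 had a change of 1.34, an FDR of 0.00049 and an enrichment of 2.04 in the authors' deposited table. Both were weakly enriched, below the list median of 5.525. The Rab40c peak at chr17:25883243-25883718 had a change of 1.14, an FDR of 1.02e-07 and an enrichment of 8.61 in the authors' deposited table. On Rab23 the peak at chr1:33738372-33740500, in 2 blocks of 9 and 1248 bases, was the most enriched of the 8 at 23.1 and changed by 0.38 with an FDR of 0.000479 in the authors' deposited table.

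The 4 negative changes were on Rab7, Rab3a, Rab35 and Rab1. The Rab7 peak at chr6:88000268-88000417 changed by -0.77 with an FDR of 6.31e-11 and an enrichment of 1.45 in the authors' deposited table. On Rab3a the peak at chr8:70758390-70758686 changed by -0.66 with an FDR of 5.25e-06 and an enrichment of 2.95 in the authors' deposited table. This peak reaches 78 bases past the RefSeq end of Rab3a, into the span of Mpv17l2 on the opposite strand. The Rab35 peak at chr5:115643626-115646092, in blocks of 74 and 460 bases, changed by -0.40 with an FDR of 1.07e-05 and an enrichment of 9.16 in the authors' deposited table. On Rab1 the peak at chr11:20224857-20225065 changed by -0.37 with an FDR of 5.37e-06 and an enrichment of 1.44 in the authors' deposited table. The enrichments on Rab7 and Rab1 exceeded those of only 4.97% and 4.73% of listed peaks.

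All 8 peaks lay towards the 3′ end of the gene. Where the other listed peaks lie along their genes was not analysed, so this place is not shown to be particular to Rab genes. Their midpoints fell between 72.8% and 98.2% of the RefSeq span from the 5′ end, and 5 of them were past 90%. The midpoint of the Rab3a peak was 71 bases before the annotated gene end, and that of the Rab5b peak 673 bases before it. The span includes introns, and no transcript model was used here, so whether a peak lies in coding sequence or an untranslated region was not analysed.

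Set beside input RNA, 6 of the 8 peak changes had, with the sign as deposited, the opposite sign to the input change of their gene, 75.0% against 64.0% of 2098 listed peaks on all genes with an adjusted p. Were the deposited peak change control over knockdown, these would be 2 of 8, and 756 of 2098 overall. Of the 4 genes that passed in input, Rab5b and Rab3d fell and carried positive-change peaks, and Rab3a rose and carried a negative-change peak. Rab1 fell and carried a negative-change peak. That is 3 opposite of 4, 75.0%, against 71.2% of 992 listed peaks on all genes called in input, so the members were near the background. With the peak change turned round, the shares would be 25.0% and 28.8%. Both values may draw on the input libraries, whose part in this pattern was not tested. Rab7, Rab35, Rab40c and Rab23 did not pass in input, at 0.11, 0.13, -0.15 and 0.02. Of the 19 falling genes, 16 had no listed peak, Rab9, Rab8a and Rab39b among them. A listed peak was on only 15.1% of all 53 members and on 16.9% of all genes with a mean of at least 100. Most genes thus had none, falling or not.

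**Figure D4:**
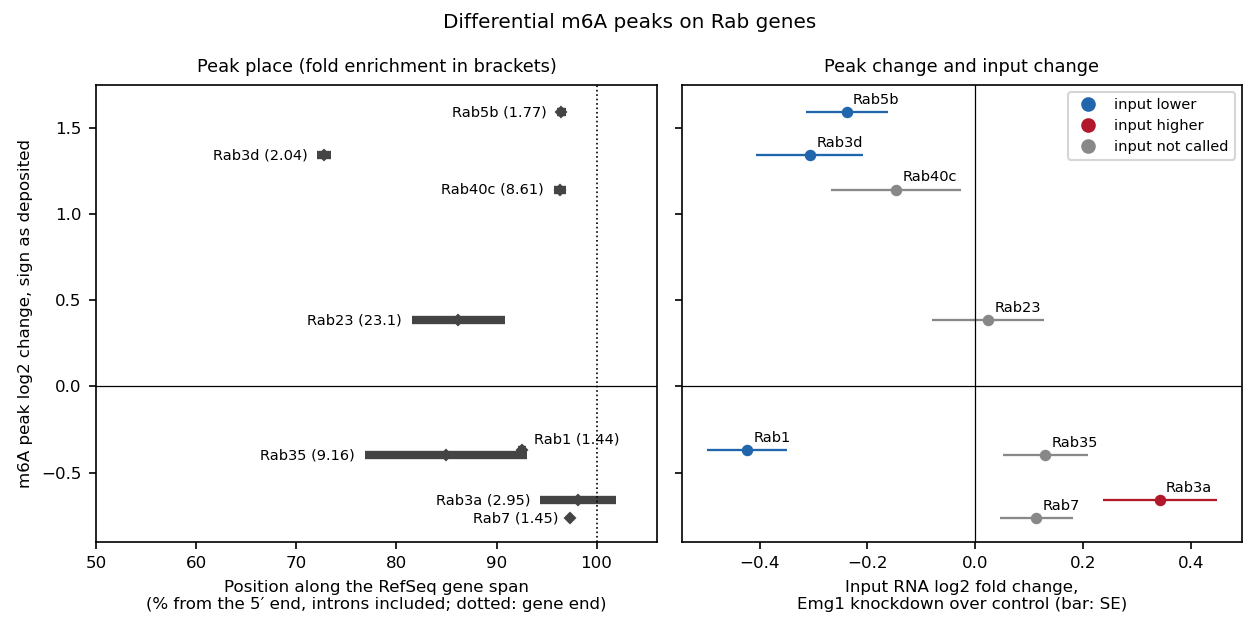
The 8 differential m6A peaks on Rab genes. Left, the peak's log2 change, sign as deposited, against its place along the gene span (bars span the peak, introns included); right, the same change against the input log2 fold change, Emg1 knockdown over control, with its SE. All peaks lie past 70% of the span, and 6 of 8 lie in the quadrants of opposite sign as deposited, 2 of 8 if the unstated ratio is turned round. The places of listed peaks on other genes were not analysed.

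Peaks on partner genes followed no single sign either. Effectors carried 4, with the change on Bicd2 at -0.66 (chr13:49379076-49383731, enrichment 14.1) beside its rise in input in the authors' deposited table. Exchange factors carried 7 peaks on 5 genes, of which Dennd5b had 2 at 0.93 and 0.91 and fell by 0.25 ± 0.09 in input in the authors' deposited table. The 3 peaks on genes of GTPase-activating proteins, Tbc1d16, Tbc1d20 and Tbc1d12, were positive, at 0.91, 0.84 and 0.56 in the authors' deposited table.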

How the data were processed

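The study sequenced m6A-immunoprecipitated and input poly(A) RNA of N2a cells, 2 libraries in each of 4 groups. The submitters' processing notes name Trimmomatic, HISAT2, DESeq2 and mm10. How reads were counted, how peaks were called and whether replicates were pooled is not stated there.

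The input table holds the authors' deposited DESeq2 results: the mean normalized count, a signal per gene over the libraries; the log2 fold change with its SE; the Wald statistic, a score; and the p-value with its adjusted p-value. Of its genes, 12807 have an adjusted p; the other 3472 had means of at most 22.7. The peak table holds, as deposited by the authors, the fold enrichment as a ratio, the log2 change, and log10 values of p and FDR, treated as a score. Only differential peaks are listed, with FDR up to 0.0282.

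No count model could be refitted without values per library, so the planned case of the authors' adjusted p under 0.05 applied. The members, role lists and partner lists were chosen with earlier results of these data known, and the Arf and Arl list after them. All falling or rising members, all members with a peak and up to 4 called genes per partner list are named; other members are named to account for them. Some genes of the lists are counted in them and otherwise not reported here. Intervals are 95% normal intervals from the SE and, like the SE, do not cover differences between cultures. Peak positions were set against RefSeq gene spans of GRCm38.p6, the same build; 52 members matched by symbol and Rab1 through an older symbol. Motif positions were searched in 250 bases before the outermost start of the promoter table. The recomputed Wald p and Benjamini-Hochberg adjustment were tested on simulated data. Alternatives were other thresholds, adjustment over all genes, a minimum mean of 100, centring on the median, and stricter peak filters. Computation used matplotlib 3.10.9, scipy 1.17.1, pandas 2.3.3 and numpy 2.4.6 on Python 3.11.15.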

Additional observations from a re-analysis of the deposited data

How the results depend on the processing

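The falling and rising counts of Rab genes, 19 and 1, kept their size under adjustment over all genes with a p (18 and 1), a minimum mean of 100 (18 and 1), an adjusted p under 0.1 (20 and 1) and centring on the median of 0.0077 (19 and 1). Stricter rules left fewer by construction: 11 fell and 1 rose at an adjusted p under 0.01, and 4 fell and 0 rose with an absolute log2 fold change of at least 0.58, namely Rab40b, Rab9, Rab36 and Rab39b. The share of all genes called under these stricter rules was not computed, so no background stands beside these counts. Rab10 did not pass when adjusted over all genes (adjusted p = 0.0542), Rab40b is not tested at a minimum mean of 100, and an adjusted p under 0.1 adds Rab33a. Of the peaks, those with a negative change numbered 2 at a fold enrichment of at least 2 and 0 at an absolute log2 change of at least 1, against 4. With all 8 peaks counted, the share opposite in sign to the input change was 75.0% as deposited, or 25.0% if the peak change is turned round, as it was for the 4 called genes. For the role and partner lists, alternatives added after seeing the data, the 9 rising effectors numbered 1 and the 5 falling prenylation genes 0 at an absolute change of at least 0.58. Here too, the share of all genes at that cut was not computed.

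No paired analysis was possible because neither table gives values per library. For the same reason leaving out replicates and a second count tool were not run. Depth limits the 6 members without an adjusted p.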

Other observations

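Genes of the Arf and Arl GTPases, the other main family of membrane-traffic GTPases, were looked at for comparison after the Rab results were known. Of 20 with an adjusted p, 7 fell and 1 rose, against 15.5% lower and 17.1% higher over all tested genes. Their median change was -0.21 (log2), beside -0.23 for the Rab genes and -0.0023 for all tested genes; no test of a difference was made. Arf5 fell to 70.7% of control (-0.50 ± 0.08, DESeq2 adjusted p = 1.03e-08 in the authors' deposited table), and Arf1, which recruits the COPI coat to the Golgi, to 80.5% (-0.31 ± 0.05, DESeq2 adjusted p = 4.95e-08 in the authors' deposited table). Arf3, Arf4, Arl6, Arl5b and Arl4a fell by 0.21 to 0.38, and Arl10 rose by 0.48 ± 0.19. Differential peaks were listed on 5 of 23 Arf and Arl genes, against 11.7% of all genes of the input table, or 16.9% at a mean of at least 100. On Arl5a, Arf6, Arl15, Arl2 and Arl3 the changes were 0.61, -0.35, 0.68, -0.56 and -1.35 in the authors' deposited table, with the ratio unstated. None of these 5 genes passed in input. Of 2098 listed peaks on all genes with an adjusted p, 992 lay on genes called in input.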
